A study of Mus musculus with 4 samples.

Results

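The mRNAs of 37 mouse genes that act in meiotic prophase were examined in RNA recovered with the late chromatoid body kinase TSSK2. The genes were taken from a list of names by their known roles, drawn up with earlier results of these data known, and all 37 were found among the 21936 genes of the deposited table. They comprise 8 genes of the synaptonemal complex, 6 of the chromosome axis and its cohesins, 6 of double-strand break formation, 5 of strand exchange, 7 of crossover formation, 2 RNA regulators of meiotic entry and 3 of telomere attachment. Of these, 32 had enough counts to be tested.

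Germ cells were prepared from the testes of adult C57BL/6 mice without any genetic alteration, cross-linked with formaldehyde, lysed and sonicated. Complexes were then immunoprecipitated from the pellet fraction of a low-speed spin. One group received an anti-TSSK2 antibody (TSSK2-IP, n = 2) and the other mouse IgG as the negative control (control IgG-IP, n = 2). The sources used here do not say whether libraries of a group came from separate animals, so the p-values measure only the spread between libraries, which may be technical. RNA was extracted after the cross-links were reversed and sequenced as directional libraries without removal of rRNA, and the counts are those of genes in the precipitates. Fewer cells of a type, less RNA per cell and lower recovery in the precipitation, specific or not, cannot be told apart in such material.

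In meiotic prophase, homologous chromosomes are organised along protein axes built on cohesin, are broken by the SPO11 machinery, and are joined along their length by the synaptonemal complex, a zipper-like structure. The breaks are repaired with the homologue as a template, and a few of them become crossovers. Most of these genes are transcribed in spermatocytes, whereas TSSK2 protein marks the late chromatoid body of elongating spermatids, cells that have completed meiosis. The comparison therefore asks whether mRNAs of an earlier stage were more or less abundant in the TSSK2 precipitate than in the control precipitate.

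The libraries held between 3938922 and 9858941 counts, with 1 count worth between 0.156 and 0.230 CPM after normalization with TMM, a method that scales libraries so that most genes keep their level. A limit of 3 counts thus corresponded to between 0.468 and 0.689 normalized CPM, for counting error only. Both TSSK2-IP libraries were alike, and 4.48% of the 14722 genes tested differed at least 2-fold between them, on the scale of log2 of CPM + 0.5. Both control libraries differed at least 2-fold for 39.9% of these genes, and control IgG-IP replicate 1 stood apart from the other 3 libraries, with a normalization factor of 0.652 against 1.12 to 1.18. Many of the larger differences below are therefore also given with each control library left out.

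Spermatid markers were abundant in all libraries. Their 16 genes summed to between 9594 and 10066 normalized CPM in TSSK2-IP and to 27543 and 12341 in control IgG-IP replicates 1 and 2. Of the 27543, Odf2 held 10705 and Akap4 5879. The sums depend on the scaling. Over all genes, normalized CPM summed to 1538230 in control IgG-IP replicate 1 and to between 854718 and 905028 in the other libraries. The 37 meiotic genes summed to between 2287 and 2364 normalized CPM in TSSK2-IP, and to 4184 and 2485 in the control libraries. The 10 spermatogonial markers summed to between 59.6 and 68.8 in TSSK2-IP and to 53.7 and 72.1 in the controls, with Nanos3 at 0 counts in control IgG-IP replicate 2. The 16 markers of Sertoli, Leydig, peritubular, endothelial and macrophage cells summed to 114 and 118 in TSSK2-IP and to 69.9 and 140.2 in the controls, with the Leydig gene Insl3 at 0 counts in control IgG-IP replicate 1. In none of the 3 marker lists did a gene pass the test (0 genes), beside 0.693% of all genes called higher and 0% called lower. At an unadjusted p under 0.05 in edgeR, 0 markers were higher and 1 was lower, beside 8.34% and 4.89% of all genes. The part of these cells in the results was not tested.

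None of the 32 tested meiotic mRNAs was called in either direction (0 genes) by edgeR's quasi-likelihood test, where a call needed a change of 2-fold or more (1 on the log2 scale) and a Benjamini-Hochberg adjusted p no higher than 0.05 over all genes. The background in the same comparison was 0.693% of genes called higher and 0% called lower. At an unadjusted p under 0.05, 1 meiotic mRNA was higher and 0 were lower, beside 8.34% and 4.89% of all genes. DESeq2 also called 0 of them. At an unadjusted p under 0.05 in DESeq2, 0 of the 32 were higher and 2 were lower. Of the 14722 genes, 844 were higher and 1094 lower in DESeq2 at that limit. The median log2 fold change of the 32 was 0.14, with quartiles of -0.27 and 0.42, and that of all genes was -0.019, with quartiles of -0.57 and 0.54. Exact permutation of 2 and 2 libraries gives no two-sided p smaller than 0.333, so the test rests on a spread shared across genes.

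**Figure D1:**
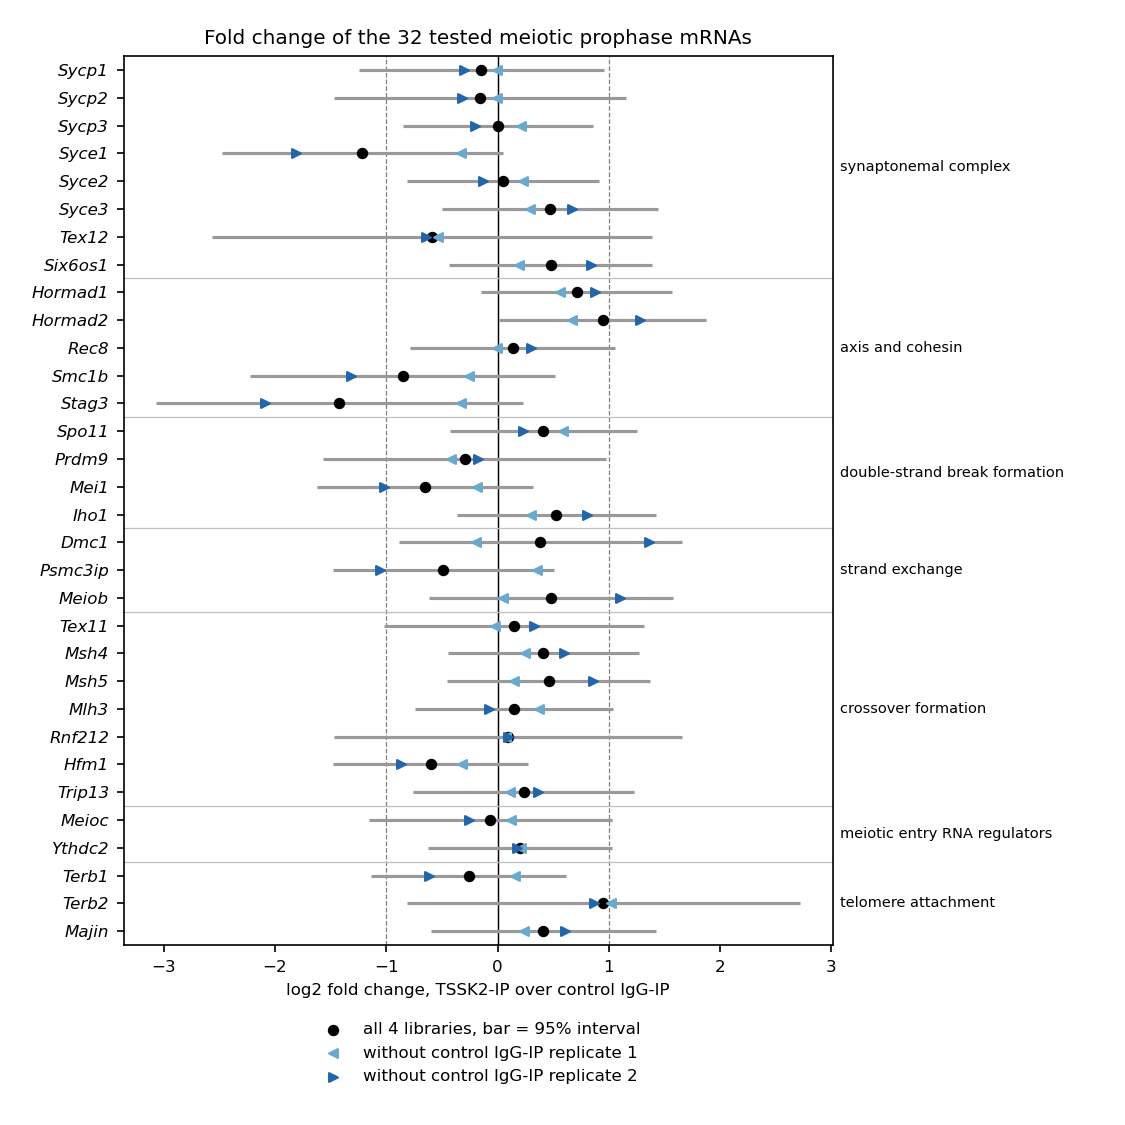
Log2 fold change of TSSK2-IP over control IgG-IP (x axis) for each of the 32 tested meiotic mRNAs, grouped by role. Black points are the fit to all 4 libraries with 95% intervals as bars, triangles are fits without control IgG-IP replicate 1 or 2, and dashed lines mark a 2-fold change; the points run from -1.42 for Stag3 to 0.95 for Terb2, and the interval of Hormad2 alone leaves out 0.

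The direction of small differences depended on the scaling. With TMM 20 of the 32 mRNAs lay above 0 and 12 below, with DESeq2's size factors 17 and 15, and with upper-quartile normalization 19 and 13. When libraries were scaled to their totals only, 26 lay above 0 and 6 below (81.2% above, against 62.5% with TMM), and the share of all genes above 0 went from 49.2% to 69.1%. The median of all genes moved from -0.019 to 0.37 with totals only and to -0.14 with DESeq2's size factors. Relative to all genes, the meiotic median lay 0.16 higher with TMM and 0.16 higher with DESeq2's size factors. This difference rested on single libraries, being -0.031 without control IgG-IP replicate 2, 0.12 without control IgG-IP replicate 1, 0.070 without TSSK2-IP replicate 1 and 0.26 without TSSK2-IP replicate 2. TSSK2-IP values exceeded both controls in both libraries for 11 of the 32 mRNAs, beside 27.3% of all genes, and were below them for 7, beside 21.6% of all genes. The other 14 overlapped.

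The distance between groups was set by which control was used. Against control IgG-IP replicate 2, the mean of TSSK2-IP lay within 2-fold for all 32 mRNAs (0 past 2-fold), while 12.4% of all genes lay outside. Against control IgG-IP replicate 1, 6 of the 32 lay at least 2-fold away, beside 39.7% of all genes. These were Stag3, Syce1 and Smc1b, which were lower in TSSK2-IP, and Hormad2, Dmc1 and Meiob, which were higher. Between the control libraries themselves 5 of the 32 differed at least 2-fold (Stag3, Syce1, Psmc3ip, Dmc1 and Meiob), beside the 39.9% of all genes given above. Between the TSSK2-IP libraries only Tex12, with 4 and 13 counts, did so.

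**Figure D2:**
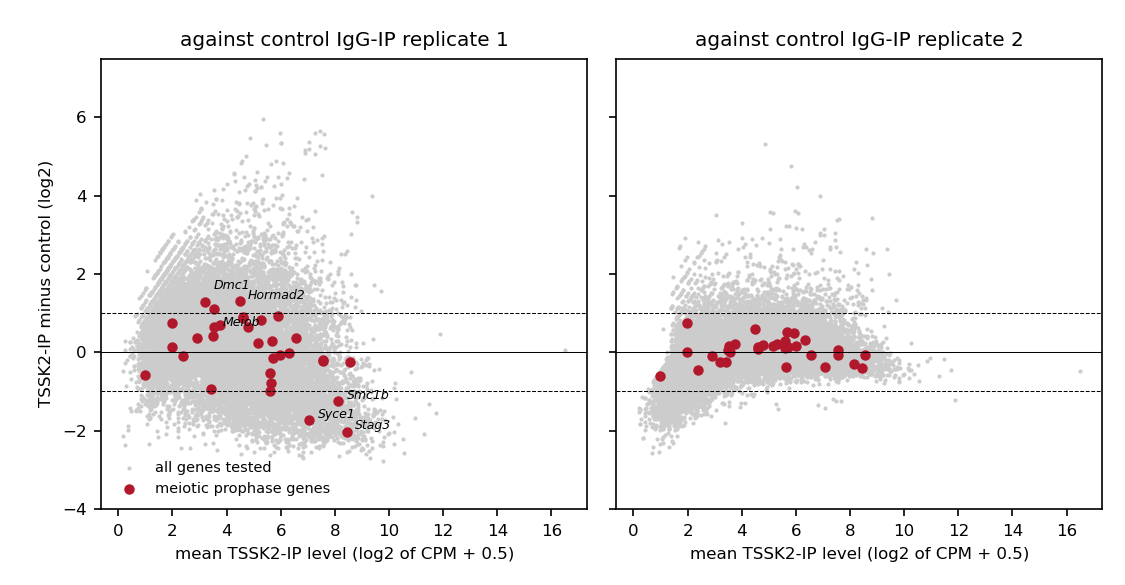
Difference between the mean of TSSK2-IP and control IgG-IP replicate 1 (left) or replicate 2 (right), in log2 of CPM + 0.5 (y axis), against the mean TSSK2-IP level on the same scale (x axis). Grey points are all 14722 genes tested and red points the 32 meiotic genes; 6 of them, named, lie past the dashed 2-fold lines on the left and 0 on the right.

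Without control IgG-IP replicate 2, the fit had replicate 1 as a lone control, assumed to vary like the TSSK2-IP libraries. Its log2 fold changes were -2.09 for Stag3, -1.81 for Syce1, -1.32 for Smc1b, -1.06 for Psmc3ip and -1.02 for Mei1. They were 1.28 for Hormad2, 1.36 for Dmc1 and 1.10 for Meiob. These 8 of the 32 lay past 2-fold in that fit. On the other scale, log2 of CPM + 0.5, 6 of the 32 and 39.7% of all genes lay at least 2-fold from the same control. Without control IgG-IP replicate 1, replicate 2 was the lone control, and Terb2, at 1.02, lay farthest from 0 of the 32. Terb2 was thus just past 2-fold in that fit, though not on the scale of log2 of CPM + 0.5. Mnd1, not tested with all 4 libraries, entered that fit through its 27 counts in the lone control, against 5 and 9 in TSSK2-IP. Its log2 fold change there, -2.09, thus adds nothing to that count.

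**Figure D3:**
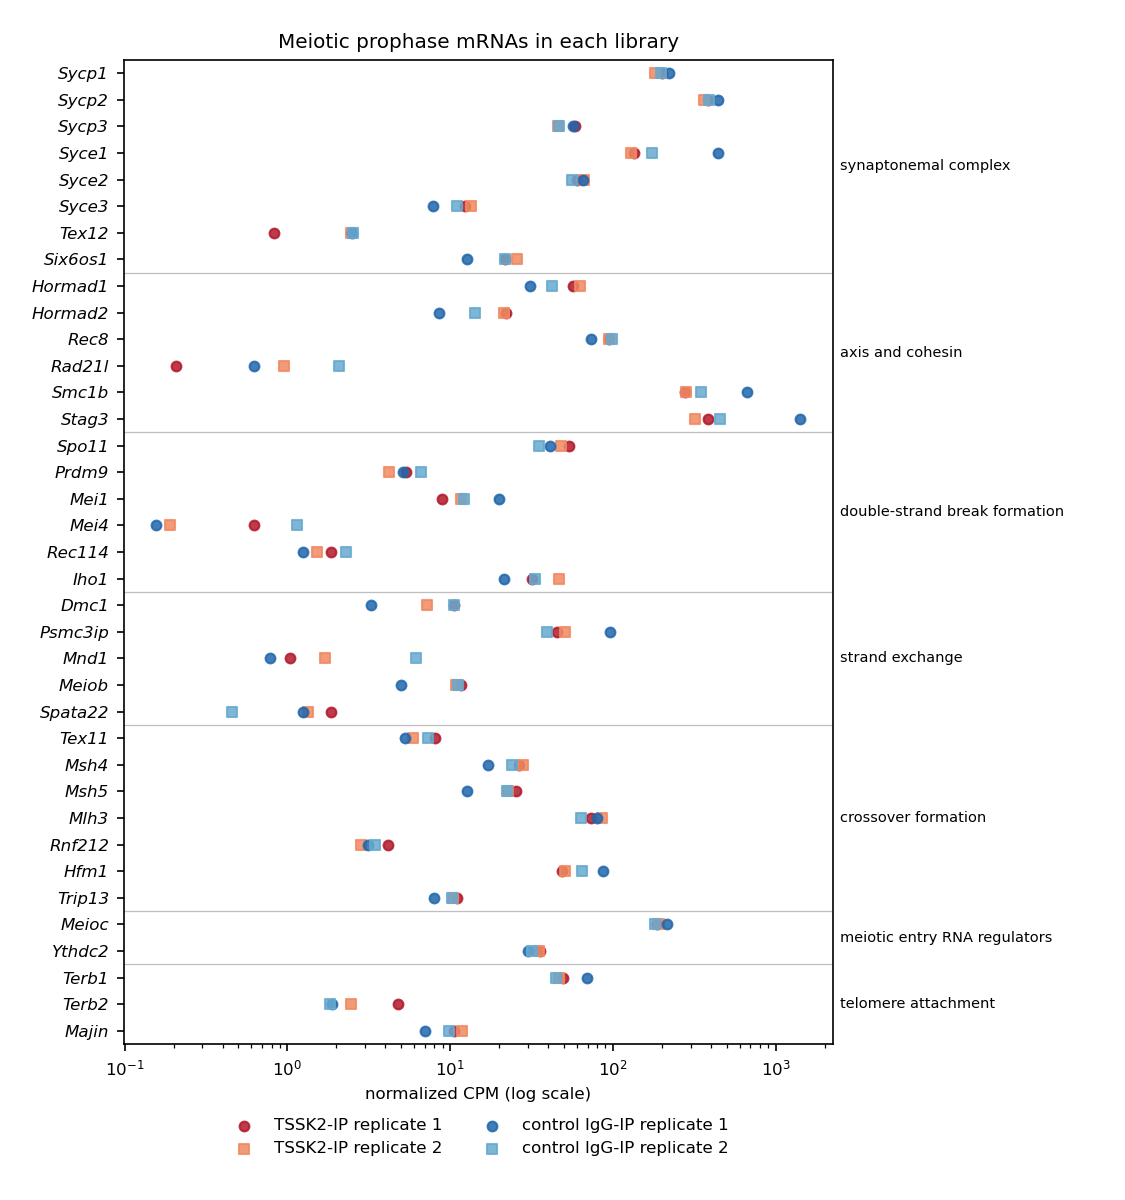
Normalized CPM on a log scale (x axis) of each of the 37 meiotic mRNAs in each of the 4 libraries, grouped by role. Red circles and orange squares are TSSK2-IP replicates 1 and 2, dark blue circles and light blue squares control IgG-IP replicates 1 and 2. Among the 32 tested mRNAs, the widest gap between controls on this scale is that of Dmc1, at 3.28 and 10.6 normalized CPM. For Stag3, control IgG-IP replicate 1 is at 1417 against 318 to 457 in the other 3 libraries.

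The synaptonemal complex mRNAs ranged from sparse (Tex12) to abundant (Sycp1, Sycp2 and Syce1). The 8 genes had a median log2 fold change of -0.071, with 4 above 0 and 4 below. Sycp1, on chromosome 3 of GRCm38 from 102818499 to 102936100, encodes the transverse filament that bridges the axes. It had 199 and 181 normalized CPM in TSSK2-IP and 223 and 198 in control IgG-IP replicates 1 and 2. The groups overlapped, and the log2 fold change was -0.15, with a 95% interval from -1.25 to 0.95. Sycp2 and Sycp3 encode the lateral elements of the complex. Sycp2 had 384 and 364 normalized CPM in TSSK2-IP and 444 and 389 in the controls (log2 fold change -0.16), so both TSSK2-IP libraries lay slightly below. Sycp3 had 58.5 and 45.9 in TSSK2-IP and 57.1 and 46.9 in the controls, and replicates of a group were farther apart than the groups. Its counts are uncertain, since 660 bases of its exons, 52.2% of them, overlap Chpt1 on the opposite strand and the strand setting of the counting was not given in the sources used here.

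The central element of the complex holds the products of Syce1, Syce2, Syce3, Tex12 and Six6os1. Syce1 (ENSMUSG00000025480), on chromosome 7 from 140777229 to 140787852, had 136 and 130.0 normalized CPM in TSSK2-IP, and 443 and 173 in control IgG-IP replicates 1 and 2. Both TSSK2-IP libraries lay below both controls, with control IgG-IP replicate 1 far above the rest. The fit gave -1.21 on the log2 scale (SE 0.59, adjusted p = 0.3896 by edgeR, quasi-likelihood, Benjamini-Hochberg). This value became -0.32 when control IgG-IP replicate 1 was left out and -1.81 when replicate 2 was. Syce2 had 59.9 and 66.2 in TSSK2-IP and 66.0 and 56.1 in the controls, with overlapping groups. Syce3, the shortest of the 37 at 553 bases of exon, had 12.4 and 13.5 normalized CPM against 7.80 and 11.03 (log2 fold change 0.47). Six6os1, annotated as 4930447C04Rik, had 21.8 and 25.7 against 12.6 and 21.6 (log2 fold change 0.48). For both of these mRNAs the TSSK2-IP libraries lay just above control IgG-IP replicate 2. Without control IgG-IP replicate 1, Syce3 was at 0.29 and Six6os1 at 0.19, and without replicate 2 they were at 0.66 and 0.84. Tex12 was sparse, with 4 and 13 counts in TSSK2-IP and 16 and 11 in the controls, and its log2 fold change ran from -1.58 to -0.037 with 1 TSSK2-IP library left out.

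Of the 6 axis and cohesin genes 5 were tested, with 3 log2 fold changes above 0 and 2 below. HORMAD1 and HORMAD2 are axis proteins with a HORMA domain that mark unsynapsed chromosomes. Hormad2 (ENSMUSG00000020419), on chromosome 11 from 4345814 to 4441105, had 22.2 and 21.5 normalized CPM in TSSK2-IP and 8.58 and 14.2 in the controls. Hormad1, on chromosome 3 from 95559677 to 95587671, had 56.8 and 63.0 in TSSK2-IP and 31.0 and 42.3 in the controls. For both mRNAs the groups did not overlap, and TSSK2-IP lay above each control library. Hormad2 was the only one of the 32 with an unadjusted p under 0.05 in edgeR's test across all genes. Its log2 fold change was 0.94, with a standard error of 0.43 and a Benjamini-Hochberg adjusted p of 0.369 in that test. For Hormad1 the fit gave 0.71 on the log2 scale (SE 0.40, adjusted p = 0.438 by edgeR, quasi-likelihood, Benjamini-Hochberg). Without control IgG-IP replicate 1 the values were 0.67 for Hormad2 and 0.56 for Hormad1, and without replicate 2 they were 1.28 and 0.88. Hormad1 shares a stretch of 922 bases at 97.7% identity with the processed pseudogene Gm15529, so reads may have been split between them.

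Stag3 and Smc1b encode cohesin subunits particular to meiosis. Stag3 (ENSMUSG00000036928), on chromosome 5 from 138280240 to 138312393, had 382 and 318 normalized CPM in TSSK2-IP, and 1417 and 457 in control IgG-IP replicates 1 and 2. Both TSSK2-IP libraries lay below both controls, and the gap within the control group exceeded that between TSSK2-IP and control IgG-IP replicate 2. At -1.42, its log2 fold change was the lowest of the 32 (SE 0.77, adjusted p = 0.422 by edgeR, quasi-likelihood, Benjamini-Hochberg), with a 95% interval from -3.07 to 0.23. Leaving out control IgG-IP replicate 1 brought it to -0.33, and leaving out replicate 2 to -2.09. Smc1b, on chromosome 15 from 85064689 to 85131964, had the same order, with 278 and 282 in TSSK2-IP and 664 and 348 in the controls. Its log2 fold change was -0.85, and -0.26 or -1.32 without control IgG-IP replicate 1 or 2.

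Their kleisin partners, which close the cohesin ring, did not share that order. Rec8 had 94.1 and 94.8 normalized CPM in TSSK2-IP and 73.3 and 98.8 in the controls, with a log2 fold change of 0.13 and overlapping groups. Rad21l had 1 and 5 counts in TSSK2-IP and 4 and 9 in the controls, too few to be tested. Cohesin genes of the meiotic ring thus ranged from -1.42 for Stag3 to 0.13 for Rec8 in log2 fold change.

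Stag3, Syce1 and Smc1b together, singled out after their values were seen, accounted for 33.7% and 31.9% of the counts of the 37 genes in TSSK2-IP, and for 60.4% and 39.4% in control IgG-IP replicates 1 and 2. The other 34 genes summed to 1568 and 1558 normalized CPM in TSSK2-IP and to 1659 and 1507 in the controls. Without normalization, the 37 genes took 0.274% and 0.268% of the counts in TSSK2-IP and 0.272% and 0.274% in control IgG-IP, so the share of the whole group was nearly the same in all 4 libraries.

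Of the 6 break formation genes 4 were tested, 2 of them above 0 and 2 below. SPO11 makes the breaks. Spo11 had 54.1 and 47.8 normalized CPM in TSSK2-IP and 41.3 and 35.2 in the controls, with both TSSK2-IP libraries above (log2 fold change 0.41, 95% interval from -0.43 to 1.25, and 0.59 or 0.23 without control IgG-IP replicate 1 or 2). Iho1, whose product assembles the break machinery on axes and which is annotated as Ccdc36, had 31.7 and 46.6 in TSSK2-IP and 21.4 and 33.1 in the controls, and the groups overlapped. The log2 fold change of Iho1 was 0.53, and 0.30 or 0.81 without control IgG-IP replicate 1 or 2. Prdm9, which encodes the histone methyltransferase that places break hotspots, had 5.39 and 4.19 against 5.15 and 6.66. Mei1 had 8.91 and 11.6 in TSSK2-IP and 19.97 and 12.2 in the controls (log2 fold change -0.65), with TSSK2-IP below both, and it was at -1.02 without control IgG-IP replicate 2 but at -0.19 without replicate 1. Mei4 and Rec114, whose products form a complex needed for breaks, had too few counts to be tested. Mei4 had 3 and 1 counts in TSSK2-IP and 1 and 5 in the controls. Rec114 had 9 and 8 counts against 8 and 10, and 26.9% of its exon bases overlap Nptn on the opposite strand.

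Strand exchange is carried out by the recombinase DMC1, assisted by the PSMC3IP and MND1 pair, while MEIOB and SPATA22 bind the single-stranded DNA. Dmc1, on chromosome 15 from 79561497 to 79605109, had 10.6 and 7.23 normalized CPM in TSSK2-IP and 3.28 and 10.6 in control IgG-IP replicates 1 and 2. Meiob, on chromosome 17 from 24804289 to 24839788, had 11.6 and 10.8 in TSSK2-IP and 4.99 and 11.3 in the controls. For both, control IgG-IP replicate 2 lay within or next to the TSSK2-IP libraries and replicate 1 lay below them all. Psmc3ip, on chromosome 11 from 101091823 to 101095436, had the opposite order, with 45.6 and 51.0 in TSSK2-IP and 95.8 and 39.3 in the controls. All 3 mRNAs differed at least 2-fold between the control libraries. Their fitted log2 fold changes were 0.39, 0.48 and -0.49, and -0.20, 0.051 and 0.36 without control IgG-IP replicate 1. Without replicate 2, which left replicate 1 as the lone control, they were 1.36, 1.10 and -1.06. The exons of Psmc3ip overlap Mlx on the opposite strand over 385 bases.

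The partners of these proteins were close to the limit of detection. Mnd1 had 5 and 9 counts in TSSK2-IP, and 5 and 27 in control IgG-IP replicates 1 and 2, so control IgG-IP replicate 2 alone was high. It shares 824 bases at 97.1% identity with the pseudogene Mnd1-ps. Spata22 had 9 and 7 counts in TSSK2-IP and 8 and 2 in the controls. Of its exon bases, 80.5% lie in Gm49340 on the same strand, which itself was listed at 0 counts in all 4 libraries, so reads from this stretch may not have been assigned to either gene.

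The crossover genes had the narrowest spread between the control libraries among the groups of more than 2 tested genes, with an SD of 0.44 for the log2 difference, beside 1.06 over all genes. Their median log2 fold change was 0.15, and 6 of 7 lay above 0, beside 49.2% of all genes. With DESeq2's size factors Rnf212 was at -0.033, Mlh3 at 0.013 and Tex11 at 0.030. Trip13, Msh4 and Msh5 were then at 0.11, 0.29 and 0.35. MSH4 and MSH5 form a clamp that stabilises crossover intermediates. Msh4 had 26.3 and 28.2 normalized CPM in TSSK2-IP and 17.2 and 23.9 in the controls. Msh5 had 25.3 and 22.8 in TSSK2-IP and 12.6 and 22.5 in the controls. The fitted values were 0.41 and 0.46 on the log2 scale, with TSSK2-IP above both controls in each case, and neither passed the test (adjusted p = 0.657 and 0.636 by edgeR, quasi-likelihood, Benjamini-Hochberg). They were 0.25 for Msh4 and 0.15 for Msh5 without control IgG-IP replicate 1, and 0.60 and 0.86 without replicate 2.

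Mlh3, which encodes a subunit of the endonuclease that resolves crossovers, had 73.0 and 86.2 normalized CPM in TSSK2-IP and 79.9 and 63.9 in the controls. Hfm1, which encodes a meiotic DNA helicase, was the only crossover gene below 0, with 48.7 and 50.8 in TSSK2-IP and 86.4 and 64.6 in the controls (log2 fold change -0.60, 95% interval from -1.48 to 0.27). Its groups did not overlap, and the value was -0.32 or -0.86 without control IgG-IP replicate 1 or 2. Trip13, whose ATPase removes HORMAD proteins from synapsed axes, had 10.99 and 10.5 against 7.96 and 10.3, and TSSK2-IP lay just above both controls. Tex11, an X-linked gene on chromosome X from 100838648 to 101059667 whose product forms recombination foci, had 8.09 and 5.90 against 5.30 and 7.35. Rnf212, which encodes a RING protein that selects crossover sites, had 4.15 and 2.85 against 3.12 and 3.45. Tex11 and Rnf212 overlapped between groups.

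MEIOC and YTHDC2 form a complex that acts on mRNAs at the entry into meiosis, YTHDC2 being an RNA helicase. Meioc had 188 and 191 normalized CPM in TSSK2-IP and 216 and 181 in the controls, on either side of the TSSK2-IP values. Ythdc2 had 35.7 and 35.4 in TSSK2-IP and 30.0 and 31.9 in the controls. Both TSSK2-IP libraries lay above both controls, with a log2 fold change of 0.20 and a 95% interval from -0.62 to 1.02. TERB1, TERB2 and MAJIN tie telomeres to the nuclear envelope. Terb1 had 49.1 and 46.4 normalized CPM in TSSK2-IP and 69.6 and 44.6 in the controls, and Majin 10.6 and 11.8 against 7.02 and 9.88. Terb2 had the highest fitted log2 fold change of the 32, 0.95, but it rests on 23 and 13 counts in TSSK2-IP and 12 and 8 in the controls, and its 95% interval ran from -0.82 to 2.72. The log2 fold change of Terb2 was 0.39 without TSSK2-IP replicate 1 and 1.34 without TSSK2-IP replicate 2. Without control IgG-IP replicate 1 or 2 it was 1.02 or 0.87.

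**Figure D4:**
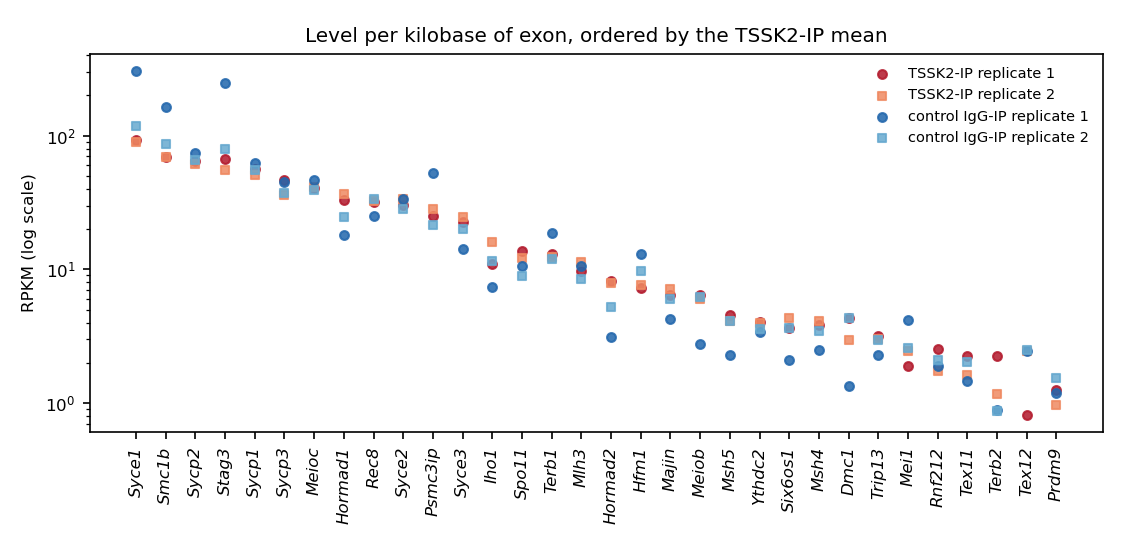
Level per kilobase of annotated exon (RPKM, log scale, y axis) of the 32 tested meiotic mRNAs in each library, ordered from left to right by the TSSK2-IP mean. Red circles and orange squares are TSSK2-IP replicates 1 and 2, dark blue circles and light blue squares control IgG-IP replicates 1 and 2; mean levels in TSSK2-IP run from 91.0 for Syce1 to 1.11 for Prdm9.

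Levels were compared between genes as RPKM, normalized CPM per kilobase of exon. In TSSK2-IP, Syce1 had the highest level of the 37, at 91.0 ± 2.82 RPKM (SD, n = 2). Smc1b followed at 69.2 ± 0.666, Sycp2 at 62.7 ± 2.31, Stag3 at 61.0 ± 7.93 and Sycp1 at 53.5 ± 3.71. Syce1 lay above the others in both TSSK2-IP libraries and Smc1b above those after it, whereas Sycp2 and Stag3, and Stag3 and Sycp1, overlapped. Sycp3 (41.3 ± 7.05) and Meioc (41.1 ± 0.521) came next and also overlapped. In control IgG-IP replicate 1 Stag3, at 247 RPKM, lay second to Syce1 at 304. Among all genes tested, Syce1 was at percentile 98.8 of the mean RPKM over the 4 libraries, and Stag3 and Smc1b were at percentiles 97.9 and 97.5. At the other end Prdm9, at percentile 25.2, and Terb2, at percentile 26.1, were the lowest of the 32 tested.

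The meiotic mRNAs differed from all genes in the medians of features that did not enter their choice, with wide ranges and no test made. The longest annotated protein-coding transcript of the 32 tested genes had a median 3′ UTR of 447 bases (from 0 to 1936), against 1095 over the 14678 genes tested with a coding transcript. Its coding part was longer, with a median of 1722 (from 264 to 4500) against 1431 bases, and its GC content was lower, at 44.0% (from 34.3% to 56.7%) against 49.8%. The union of exons had a median of 3514 bases against 4519. Across the 32 genes, Spearman's rho of the log2 fold change was -0.14 with exon length, -0.054 with GC content and -0.33 with coding length, and over all genes it was -0.061, -0.14 and -0.23. With the mean log2 CPM it was -0.46 over the 32 genes and -0.22 over all genes. These values describe genes of the same 4 libraries, which are not independent replicates. The level moved with the difference between the controls, since the rho of control IgG-IP replicate 2 minus replicate 1 with the mean log2 CPM of the same libraries was -0.59 over the 32 genes and -0.63 over all genes.

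A list of 38 other genes of meiotic prophase was tested in the same fit, and all 38 passed the filter on low counts. None was called in either direction (0 genes), beside 0.693% of all genes called higher and 0% called lower. At an unadjusted p under 0.05 in edgeR's test 1 was higher and 1 lower, beside 8.34% and 4.89% of all genes. DESeq2 called 0 of them. Their median log2 fold change was -0.20, with 15 above 0 and 23 below, where 49.2% of all genes lay above 0. Between the control libraries 13 of the 38 differed at least 2-fold, beside 39.9% of all genes. Zfp541, which encodes a chromatin factor of pachytene spermatocytes, had 229 and 188 normalized CPM in TSSK2-IP and 989 and 320.3 in the controls (log2 fold change -1.65). Hspa2, a chaperone gene, had 536 and 491 in TSSK2-IP and 2363 and 754 in the controls (-1.60). Mael, a gene of the piRNA pathway, had 478 and 445 against 2092 and 609 (-1.55). In all 3, control IgG-IP replicate 1 lay far above the other libraries.

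Spo16, annotated as 1700028K03Rik, encodes a crossover factor that binds with SHOC1. It had 13.7 and 10.3 normalized CPM in TSSK2-IP and 1.87 and 3.22 in the controls, or 66 and 54 against 12 and 14 counts. The union of its exons spans 7963 bases, against 797 in its longest annotated protein-coding transcript. Where the reads lay was not examined, and overlaps and shared sequence were searched for the members only. Both TSSK2-IP libraries lay above both controls, with a log2 fold change of 2.25 (standard error 0.57) and an adjusted p of 0.114 by edgeR (quasi-likelihood, Benjamini-Hochberg). Without control IgG-IP replicate 1 or 2, the log2 fold change of Spo16 was 1.94 or 2.59, in fits with no spread between controls. In edgeR, Spo16 passed both thresholds without a filter on low counts (adjusted p = 0.00733) and with the replicate number as a block (adjusted p = 0.0357). With all 4 libraries, Spo16 did not pass with the filter and no block, nor with DESeq2, its size factors or upper-quartile normalization. Nor did Spo16 pass with at least 10 counts in every library, Lars2 removed, library totals only, or either TSSK2-IP library left out. Hells, a chromatin remodelling gene, had 48.5 and 46.8 normalized CPM in TSSK2-IP and 21.1 and 31.7 in the controls (log2 fold change 0.86). Tdrd9, a piRNA pathway helicase gene, had 313 and 322 against 182 and 220.3 (log2 fold change 0.66). The groups did not overlap for either gene.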

How the data were processed

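RNA immunoprecipitated with TSSK2 (n = 2) and control IgG (n = 2) was analysed. The authors deposited raw counts per gene, without normalization. Per the labels, these came from Trimmomatic 0.39, STAR (genome GRCm38) and featureCounts 2.0.3. Of 21936 identifiers, 21817 were found in GENCODE vM21, on the same build, which gave names, exons and transcripts. Older names in that annotation (such as Ccdc36 for Iho1) were matched through a hand-written list.

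Counts were fitted with edgeR 4.0.16 in R 4.3.3 (filterByExpr, TMM, glmQLFit, glmQLFTest) over 14722 genes, and p-values adjusted with Benjamini-Hochberg over all of them. The standard error (SE) was the size of the fold change (log2) over the square root of F. Normalized CPM, the pseudocount of 0.5 and RPKM were computed here. All members were named; from the 38 other meiotic genes the 3 highest and 3 lowest log2 fold changes. Shared sequence of the members was searched with BLAST (at least 150 bases, 97% identity). Alternatives were DESeq2 1.42.0, its size factors, upper-quartile normalization, no filter, at least 10 counts in every library, removal of Lars2, the replicate block, leaving out each library and, added after seeing the data, library totals only. Members and lists were chosen with earlier results of these data known. Libraries of DDX4-IP were not used here.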

Additional observations from a re-analysis of the deposited data

How the results depend on the processing

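No meiotic mRNA was called (0 genes) with DESeq2, its size factors, upper-quartile normalization, either filter, the replicate block, library totals only or removal of Lars2. Leaving out 1 library at a time gave 0 to 3 meiotic mRNAs called higher and 0 to 5 lower, 0 to 4 and 0 to 7 among the other meiotic genes, and medians of -0.037 to 0.14 and -0.38 to 0.039. The -0.037 was over 35 meiotic genes, and over the same 32 genes the medians were 0.098 to 0.17. Over all genes it gave 23 to 2755 higher, 0 to 2688 lower and medians of -0.12 to 0.16. The cause of these shifts was not tested. Of 14722 genes 102 were called higher, and this was 20 with upper-quartile normalization, 283 higher and 24 lower of 21267 genes with no filter, 29 of 12540 with at least 10 counts in every library, 160 higher and 1 lower of 21267 with DESeq2, and 5 with library totals only. With the replicate number as a block it was 274 higher and 3 lower, and Spo16 was the 1 other meiotic gene called, as it was with no filter (1 gene). Deviations of same-numbered libraries correlated at 0.128, and the numbers are not known to pair the libraries. Library totals only moved the median to 0.50 for the meiotic genes, 0.21 for the other meiotic genes and 0.37 for all genes, and DESeq2 gave -0.20 over all genes it fitted, without the filter.

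Changes of sign, none of a value called with all 4 libraries, were seen for Rnf212 (-0.033), Syce2 (-0.085) and Sycp3 (-0.13) with DESeq2's size factors, for Sycp3 with upper-quartile normalization (-0.0079) and no filter (-0.035), and for Syce2 (-0.041) and Sycp3 (-0.083) with DESeq2. With library totals only, Meioc (0.38), Prdm9 (0.074), Psmc3ip (0.088), Sycp1 (0.28), Sycp2 (0.27) and Terb1 (0.24) turned positive. With a library left out, the log2 fold change ran from -0.20 to 1.36 for Dmc1, -0.26 to 0.12 for Meioc, -0.073 to 0.37 for Mlh3, -1.06 to 0.36 for Psmc3ip, -0.0087 to 0.30 for Rec8, -0.21 to 0.33 for Rnf212, -0.13 to 0.23 for Syce2, -0.20 to 0.21 for Sycp3, -0.61 to 0.16 for Terb1 and -0.10 to 0.35 for Tex11. Mnd1, Spata22, Rec114, Rad21l and Mei4 were limited by depth.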
